A study of Mus musculus with 212 samples.

Results

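Pou5f1 and Sox2 are transcription factors of the pluripotent state, and each was measured with 1 TaqMan assay of a panel of 42 assays for 33 genes. Both rows were read in all 7 tables of the series, in 192 distinct single mouse cells, taken from cultures of embryonic stem (ES) cells, from embryos and from hearts. The panel otherwise holds cardiac, smooth muscle, endothelial and mesenchymal genes and the housekeeping gene Actb. Of a list of 16 pluripotency genes, Pou5f1 and Sox2 were the 2 on it.

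Pou5f1 (also called Oct4) encodes a POU-domain protein and Sox2 an HMG-box protein. In ES cells the proteins bind side by side on composite DNA sites, keep their own genes and each other's active, and hold the cell undifferentiated. In the mouse embryo, Pou5f1 is known to be shut off in somatic cells during and after gastrulation and kept in the germ line, whereas Sox2 stays active in neural progenitors and parts of the foregut. Neither gene is a known marker of heart muscle.

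In the RefSeq annotation of GRCm38.p6, Pou5f1 is a protein-coding gene at chr17:35506032-35510777 and Sox2 a protein-coding gene at chr3:34649995-34652461. Sox2 lies inside the span of the long noncoding RNA gene Sox2ot. The same annotation lists 7 pseudogenes of Pou5f1, of which 5 are marked as transcribed, and 0 for Sox2. The position of the primers and probe of either assay is not given in the sources used here, so a signal of the gene and of a transcribed copy cannot be told apart.

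Deposited values are quantification cycles (Ct), where fewer cycles mean more template and 25 stands for no signal. A level is 25 minus Ct, that is, the number of cycles by which the gene clears this limit of detection. One unit is a doubling of template at full amplification efficiency, and an undetected gene counts as 0. A table of reference cells holds 5 cells each of types that the cell names call ES, CPC, CM, SMC, FB and EDC. These came from embryoid bodies and mouse embryo, per the labels. Each day has 6 cells in the D5-D8 table, and 10 cells in that of D23-D29. The E7.5-E10.5 table has 6 cells per stage, and the E10.5 table has 72 cells, of which 66 are in no other table. Atrial and ventricular cells comprise 10 adult and 5 neonatal cells per chamber. The labels give no strain, genotype, sex or treatment. Titles contradict the tables for 3 sets: those of D5-D8 are titled as E10.5 cells, those of D23-D29 as ES-derived at an early stage, and those of E7.5-E10.5 as ES-derived at a late one. Sets are named here by table and cell name. No animal or culture is named, so each set is 1 sample, the SD is the spread between cells, and no difference was tested.

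The ES label was set against markers of other cell types first, since the panel holds no gene of the pluripotency list beyond the 2 studied. All 5 ES cells detected Pou5f1 and Sox2, but this is part of the result and no check of the label. Pou5f1 was also detected in all 25 other reference cells. Any of the 10 cardiomyocyte assays was detected in 0 of 5 ES cells. Cdh5, Vwf and Flk-1 of the endothelial list, Myh11 and Cnn1 of the smooth muscle list and Pdgfra of the mesenchymal list were also at 0 in all 5. The other mesenchymal genes, Vim and Fn1, were not absent. Mesenchymal markers were found in 5 of 5 ES cells, with a summed level between 7.80 and 16.8 cycles. Sm22A, the other smooth muscle gene, was found in 3 of 5, at up to 1.73 cycles. Of the ES cells, 4 of 5 detected Pecam1, an adhesion protein that mouse ES cells are known to carry. Control columns stood in 6 of the 7 tables, and negative controls gave no signal for either gene. Of the reference cells, 2 of the CM cells repeat D29 cells value for value.

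ES cells had the highest mean of both genes among 21 named sets. For Pou5f1 the separation was clear, because no other reference cell reached the lowest ES cell. Pou5f1 was at 9.34, 7.96, 8.78, 9.66 and 9.19 cycles in the 5 ES cells, a mean of 8.99 ± 0.65 (SD, n = 5). The 25 cells of the other reference types lay between 2.09 and 7.61, with a mean of 5.69 ± 1.17 (SD, n = 25). The difference between the ES mean and the mean of the 5 other types was 3.30 cycles, which exceeds the spread in either group.

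Sox2 was detected in ES cells at 7.04, 5.24, 3.44, 5.35 and 4.02 cycles, a mean of 5.02 ± 1.39 (SD, n = 5). The other reference cells averaged 1.51 ± 2.17 (SD, n = 25), and 10 of 25 detected it. The difference was 3.50 cycles, but the groups overlapped. At least 1 cycle higher in ES cells than in the other types were 5 of 42 assays (11.9%), Pou5f1 and Sox2 among them.

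Pou5f1 was not absent from the other reference types. All 25 of these cells detected it. SMC cells, which carry smooth muscle genes, had the second highest mean of all sets, with 6.55, 7.61, 7.61, 6.43 and 7.51 cycles and a mean of 7.14 ± 0.60. All 5 SMC cells lay below the lowest ES cell. FB cells averaged 5.63 ± 0.82, EDC cells 5.28 ± 0.67 and CPC cells 5.06 ± 1.79 (SD, n = 5 each). CPC cells were the most uneven of these, with 1 cell at 2.09 and the others between 5.12 and 6.56. CM cells were the most even, at 5.21, 5.14, 5.43, 5.68 and 5.20 cycles (5.33 ± 0.22).

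Sox2 separated the same types in another way. It was at 4.36, 6.38, 0, 6.17 and 0.64 cycles in the 5 CPC cells, the nearest to ES cells, and the CPC mean of 3.51 ± 3.02 (SD, n = 5) was within its spread of the ES mean. The values of 6.38 and 6.17 exceed 4 of the 5 ES cells. Sox2 was detected in 3 of 5 FB cells, 2 of 5 SMC cells and 1 of 5 CM cells. It was detected in 0 of 5 EDC cells, for which the exact 95% interval reaches 52.2%.

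**Figure D1:**
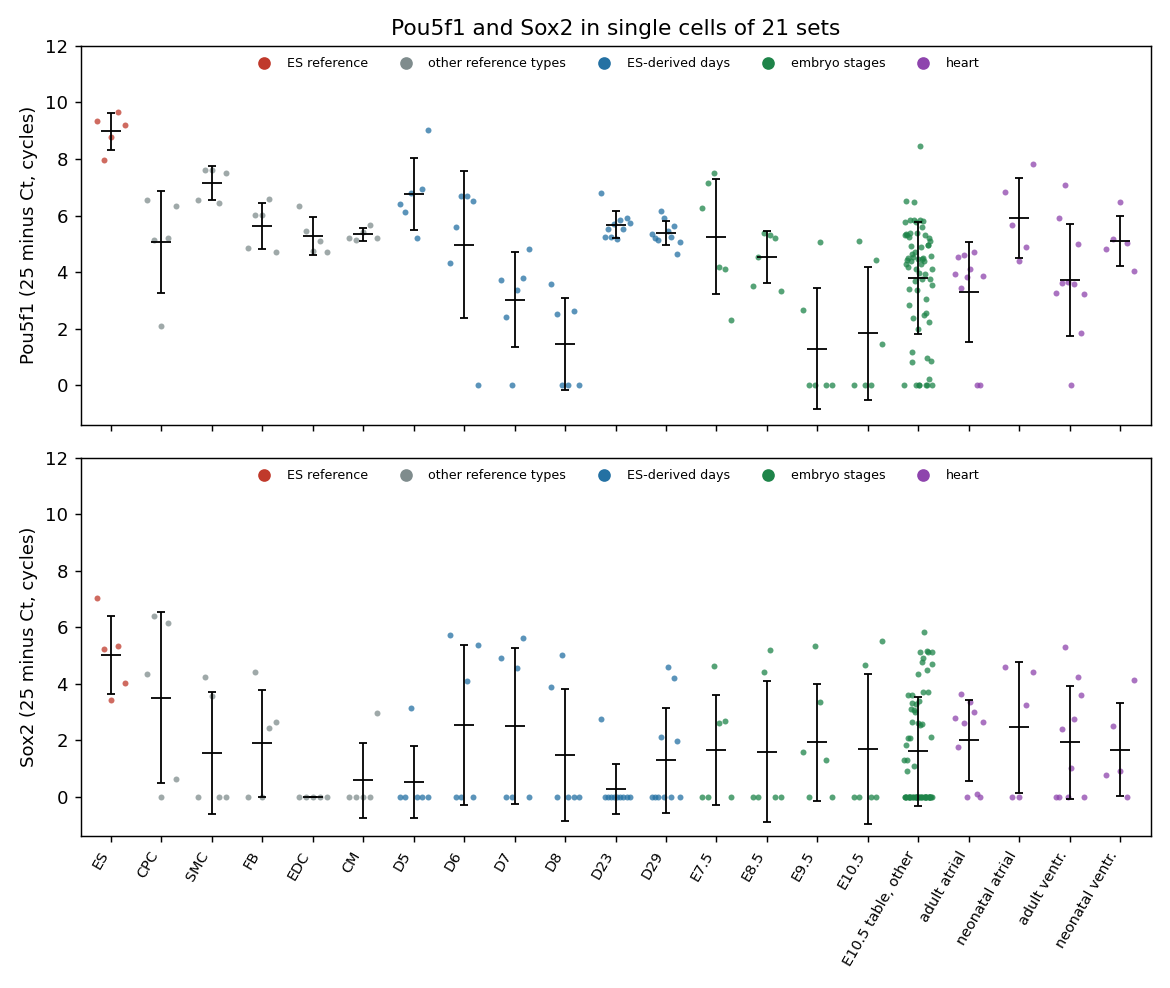
Level of Pou5f1 (top) and Sox2 (bottom) in each cell, in cycles above the detection limit, for 21 sets from ES reference cells at the left to heart cells at the right. Dots are cells, dashes means and bars SDs between cells; bars that run below 0 belong to sets with many undetected cells. ES cells average 8.99 (Pou5f1) and 5.02 (Sox2), and no other set mean is above 7.14 and 3.51.

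In the order of Pou5f1 means over the 21 sets, ES was followed by SMC (7.14) and D5 (6.75), and D8 (1.46) and E9.5 (1.29) came last. The gap between ES and SMC, 1.84 cycles, was the 1 gap between neighbours that exceeded the larger of their SDs. From neonatal atrial cells (5.92) down to D6 cells (4.97), 10 sets lay within 1 cycle of each other, and they included reference, culture, embryonic and heart cells. For Sox2 no gap between neighbours exceeded the larger SD, that between ES and CPC (SDs 1.39 and 3.02) included. Below CPC, Sox2 means ran from 2.54 in D6 cells to 0 in EDC cells.

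Single cells at the ES level were counted against the lowest ES cell of each gene. Among 187 distinct cells outside the ES set, 2 had Pou5f1 at or above 7.96 cycles. One was a D5 cell at 9.04 without Sox2, and the other a cell of the E10.5 table at 8.46 with Sox2 at 5.13. The E10.5 cell also had Tnnt2-1, an assay of cardiac troponin T, at 13.13 cycles. For Sox2, 43 of 187 cells reached the lowest ES cell of 3.44 cycles. The E10.5 cell was the 1 cell of 187 at the ES level of both genes.

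**Figure D2:**
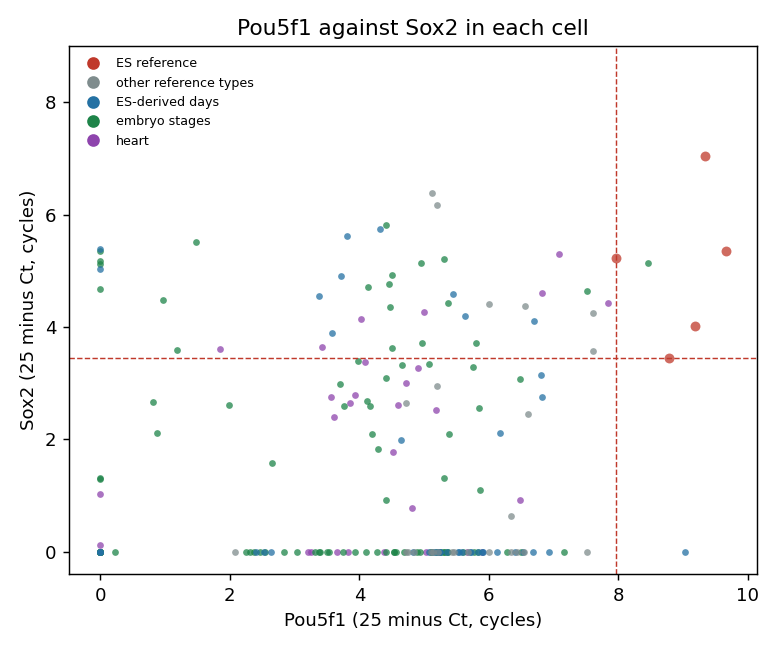
Pou5f1 (horizontal) against Sox2 (vertical) in each cell, in cycles above the detection limit, with dashed lines at the lowest ES cell of each gene. The upper right field holds all 5 ES cells and 1 other cell, from the E10.5 table, while many cells lie at 0 for Sox2 along the Pou5f1 axis.

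Pou5f1 was the third most widely detected assay of the 42 outside ES cells. It gave a signal in 165 of 187 cells (88.2%, exact 95% interval 82.7 to 92.5%), after Actb in 186 and Hand2 in 170. Sox2 ranked 26th, with 88 of 187 cells (47.1%, 39.7 to 54.5%). All such intervals cover counting error only.

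**Figure D3:**
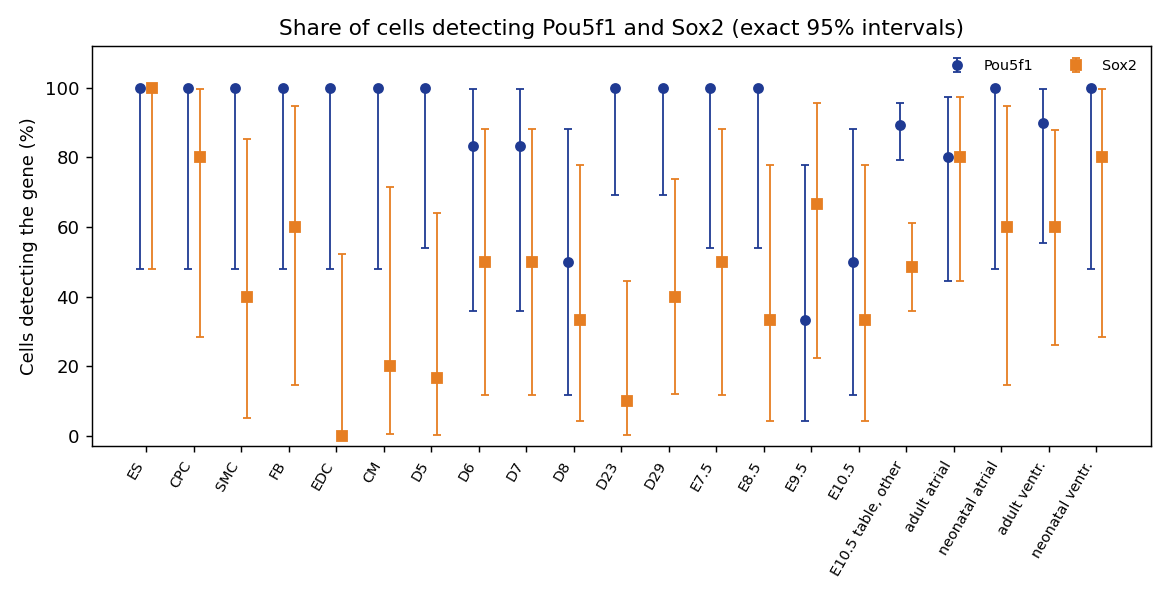
Share of cells detecting Pou5f1 (circles) and Sox2 (squares) in each set, in percent, with exact 95% intervals from 5 to 66 cells. Pou5f1 was detected in every cell of 13 sets, and in 50% or fewer of D8, E9.5 and E10.5 cells. Sox2 was detected in every cell of the ES set, and in 0% of EDC cells.

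The days D5 to D8 set cells of early ES cell differentiation in order, while cardiac genes came up. Pou5f1 means stepped down on each day. Each step was smaller than the larger SD of its 2 days, and cells of neighbouring days overlapped. On D5 the cells had 6.41, 6.12, 6.80, 5.22, 6.92 and 9.04 cycles, a mean of 6.75 ± 1.27. On D6 they had 4.31, 5.58, 6.69, 6.70, 6.52 and 0 cycles, a mean of 4.97 ± 2.60. Thus 4 of the 6 D6 cells were within the range of D5 cells, 1 lay below it and 1 gave no signal.

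On D7 the cells had 3.72, 2.40, 0, 3.38, 3.81 and 4.83 cycles, a mean of 3.02 ± 1.67. On D8 they had 3.58, 2.53, 0, 0, 2.63 and 0 cycles, a mean of 1.46 ± 1.64 (SD, n = 6 on each day). All 6 D8 cells lay below all 6 D5 cells. D8 minus D5 was -5.29 cycles, and leaving out any 1 cell gave -5.72 to -4.84. Over detecting cells alone it was -3.84. In D8 cells 11 of 42 assays (26.2%) were at least 1 cycle lower than in D5 cells.

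Actb, the housekeeping gene, was lower as well. It averaged 7.09 ± 1.59 on D8 and 12.66 ± 0.46 on D5 (SD, n = 6 each), a difference of -5.57 cycles. Across the 24 cells of the 4 days, which share a table and differ in day, Pou5f1 correlated with Actb at r = 0.79 and with Tnnt2-1 at r = -0.75. After subtracting Actb in each cell, with undetected cells at the lowest value of the cells compared, D8 minus D5 was -1.30. Over detecting cells alone it was 1.42, with Pou5f1 minus Actb at -4.49 ± 0.53 in 3 D8 cells and -5.91 ± 1.27 in 6 D5 cells. Centring on the median detected assay left D8 minus D5 at -5.18 for Pou5f1, and at -5.33 for Actb itself. The part of Actb in the Pou5f1 difference was not tested.

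A Pou5f1 signal and a muscle gene were not exclusive within a cell. Tnnt2-1 was detected in 1, 5, 6 and 6 of 6 cells on D5, D6, D7 and D8. Pou5f1 and Tnnt2-1 were detected together in 1, 4, 5 and 3 cells on the same days. On D8 all 3 cells with Pou5f1 therefore also had troponin.

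Sox2 showed no such order over these days. It was detected in 1, 3, 3 and 2 of 6 cells on D5, D6, D7 and D8, with means of 0.52 ± 1.28, 2.54 ± 2.83, 2.51 ± 2.77 and 1.49 ± 2.33. D8 minus D5 was 0.96 cycles, within the spread between cells. Sox2 and Pou5f1 were detected together in 7 of 24 cells, Pou5f1 alone in 12, Sox2 alone in 2 and neither in 3. The detecting cells of D6 and D7 averaged 5.08 and 5.02 cycles, close to the mean of ES cells.

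Late cultures of D23 and D29 did not continue the early course of Pou5f1. All 20 cells detected it, and they were among the most even of the series. On D23 the 10 cells lay between 5.17 and 6.81 cycles with a median of 5.63, and averaged 5.67 ± 0.48. On D29 they lay between 4.65 and 6.17 with a median of 5.30, and averaged 5.38 ± 0.43. D23 minus D8 was 4.21 cycles with no overlap of cells, and 3.92 to 4.64 with any 1 cell left out.

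Over both tables, D23-D29 cells averaged 5.53 ± 0.47 (SD, n = 20) and D5-D8 cells 4.05 ± 2.68 (SD, n = 24), a difference of 1.48 cycles, less than the SD between D5-D8 cells. Over detecting cells alone it was 0.41. Of the 42 assays, 14 (33.3%) exceeded D5-D8 by 1 cycle or more. Actb ran against Pou5f1 here, with 5.73 ± 0.91 in D23-D29 cells and 9.88 ± 2.73 in D5-D8 cells. Relative to Actb the difference was 5.25 cycles over detecting cells. It was 6.55 with the 5 undetected D5-D8 cells at the lowest value of the cells compared. The positive control differed between the tables, with 14.45 cycles for Pou5f1 in the D23-D29 table and 14.11 in the D5-D8 table.

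These late cells were muscle cells by their markers. Tnnt2-1 was detected in 20 of 20, together with Pou5f1 in each. The endothelial list was at 0 in all 20, mesenchymal markers were found in 13 of 20 cells, with a summed level between 0 and 16.1 cycles, and smooth muscle markers in 15 of 20, with a sum between 0 and 11.8 and Myh11 at 0. Their part in the Pou5f1 signal was not tested. Within these 20 cells of 1 table Pou5f1 had r = 0.15 with Actb, r = -0.13 with Tnnt2-1 and r = -0.03 with the number of detected assays. Sox2 was detected in 1 of 10 D23 cells, at 2.76 cycles, and in 4 of 10 D29 cells, with means of 0.28 ± 0.87 and 1.29 ± 1.84.

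Embryonic stages from E7.5 to E10.5 gave a course of their own. At E7.5 both troponin T assays were at 0 in all 6 cells. Of the cardiomyocyte list, Tnni3-2 (troponin I), Actn2 or Myl2 was detected in 3 of 6. Pou5f1 was at 6.28, 7.15, 7.51, 4.17, 4.13 and 2.31 cycles in these E7.5 cells, a mean of 5.26 ± 2.04. At E8.5 it was at 3.51, 4.53, 5.37, 5.31, 5.19 and 3.32, a mean of 4.54 ± 0.92. All 12 cells of these stages detected the gene, and their ranges overlapped.

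At E9.5 Pou5f1 was at 2.65, 0, 0, 5.07, 0 and 0 cycles, a mean of 1.29 ± 2.14. At E10.5 it was at 0, 5.11, 0, 0, 4.41 and 1.47, a mean of 1.83 ± 2.35 (SD, n = 6 at each stage). The step lay between E8.5 and E9.5, where 2 of 6 cells detected the gene at E9.5 and 6 of 6 at E8.5. E10.5 minus E7.5 was -3.43 cycles, and leaving out any 1 cell gave -4.08 to -2.98. Over detecting cells alone it was -1.59. In E10.5 cells 9 of 42 assays (21.4%) were at least 1 cycle lower than in E7.5 cells.

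A larger set of cells bore on the last stage. The other 66 cells measured at E10.5 averaged 3.80 ± 1.98 cycles, between 0 and 8.46 with a median of 4.41, and 59 of 66 detected Pou5f1 (89.4%, exact 95% interval 79.4 to 95.6%). This compares with 3 of 6 E10.5 cells (11.8 to 88.2%) of the stage table. The intervals overlap, but with 6 cells this does not show that the groups agree. E10.5 minus E7.5 was -1.46 with the 66 cells in place of the 6. The 2 groups of E10.5 cells had similar shares of cells with troponin T and with endothelial markers. Tnnt2-1 was detected in 61 of the 66 and in all 6, and endothelial markers in 31 of 66 and 3 of 6. The endothelial sum reached 40.3 cycles in the 66 cells and 6.21 in the 6, where Cdh5, Pecam1 and Vwf were at 0. The part of these markers in the Pou5f1 signal was not tested. Actb averaged 8.37 ± 1.94 in the 66 cells and 6.70 ± 1.06 in the 6. The 66 cells were 2.51 cycles above the E9.5 cells.

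Actb was again lower at the later stage, at 6.70 ± 1.06 in E10.5 cells and 11.50 ± 0.72 in E7.5 cells (SD, n = 6 each). Relative to Actb, E10.5 minus E7.5 for Pou5f1 was -0.46, and 2.91 over detecting cells alone. With the 66 other E10.5 cells in place of the 6, these values were 1.28 and 2.05. Centring the 6 cells on the median detected assay gave -4.23 for Pou5f1, and -5.98 for Actb itself. At E8.5, with Actb at 11.28 ± 0.93, Pou5f1 minus Actb was -6.74 ± 1.46, the lowest mean of any set. The part of Actb in these differences was not tested.

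Sox2 means differed little between the embryonic stages. It was detected in 3, 2, 4 and 2 of 6 cells at E7.5, E8.5, E9.5 and E10.5, with means of 1.65 ± 1.95, 1.61 ± 2.50, 1.93 ± 2.08 and 1.70 ± 2.64. The E10.5 table gave a mean of 1.62 ± 1.92 over its 66 other cells, and 32 of 66 detected it (48.5%, 36 to 61.1%). In those 66 cells both genes were detected in 29, Pou5f1 alone in 30, Sox2 alone in 3 and neither in 4. Levels of the genes were unrelated there, with r = 0.03 across the 66 cells of 1 table.

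**Figure D4:**
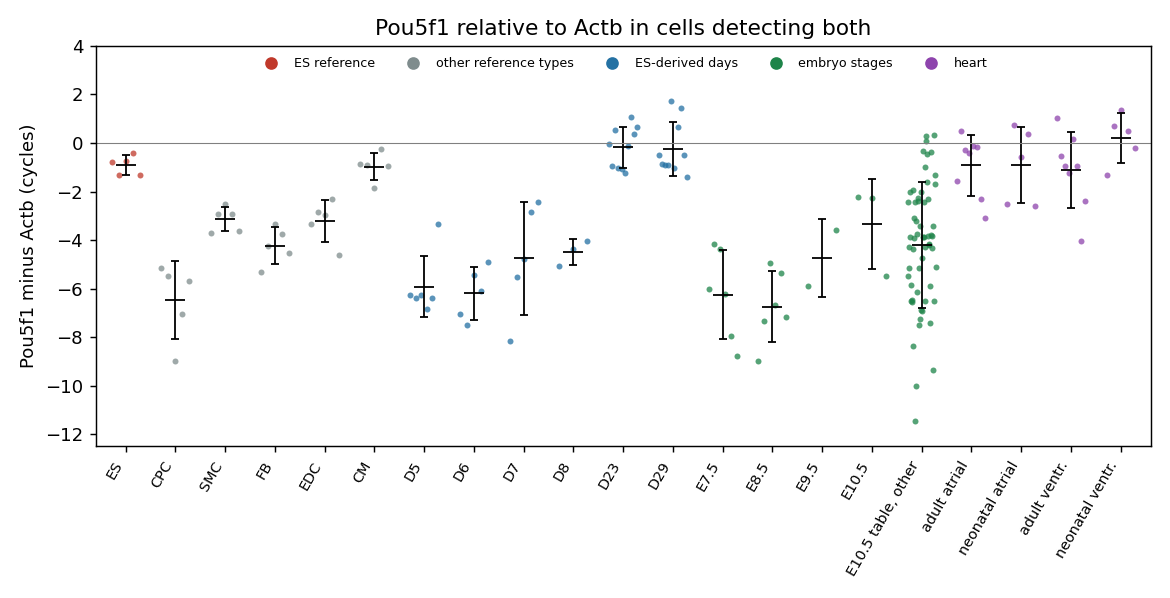
Pou5f1 minus Actb in each cell that detected both, in cycles, for the 21 sets from ES at the left to heart at the right, with means (dashes) and SDs between cells (bars). ES cells (-0.91) lie level with CM (-0.97), D23 (-0.18), D29 (-0.23) and heart sets, and above D5 to D8 and E7.5 to E8.5 cells.

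Most heart cells gave a Pou5f1 signal. All 30 heart cells detected Tnnt2-1, and 27 of 30 detected Pou5f1 (90.0%, exact 95% interval 73.5 to 97.9%), a share near the 138 of 157 (87.9%) of the other cells outside the ES set. In the 10 adult atrial cells Pou5f1 lay between 0 and 4.72 cycles with a median of 3.89, and averaged 3.30 ± 1.78. In the 5 neonatal atrial cells it was at 6.82, 5.66, 4.38, 4.90 and 7.84, a mean of 5.92 ± 1.41. The lowest neonatal atrial cell lay below the highest adult one, and the other 4 lay above all adult atrial cells.

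In the 10 adult ventricular cells Pou5f1 lay between 0 and 7.08 cycles with a median of 3.59, and averaged 3.71 ± 1.99. In the 5 neonatal ventricular cells it was at 4.82, 5.18, 6.48, 5.03 and 4.03, a mean of 5.11 ± 0.89. The ventricular ages overlapped. Over both ages, atrial cells averaged 4.17 ± 2.06 and ventricular cells 4.18 ± 1.80 (SD, n = 15 each), a difference of -0.01.

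Adult cells thus averaged less than neonatal ones in both chambers. Adult minus neonatal was -2.62 cycles in atria (-3.01 to -2.14 with any 1 cell left out) and -1.39 in ventricles (-1.77 to -0.98). At least 1 cycle lower in adult cells were 15 of 42 assays (35.7%) in atria and 7 (16.7%) in ventricles. Other measures moved with age. Adult atrial cells detected 19.7 ± 2.11 assays and neonatal ones 26.6 ± 1.52. In ventricles the numbers were 21.7 ± 3.06 and 25.4 ± 1.95.

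Mesenchymal markers (Vim, Fn1 and Pdgfra) also differed with age. In adult atrial cells 0 of the 3 were detected, while all 3 were detected among neonatal atrial cells, with a summed level between 4.90 and 34.4 cycles. In ventricles 2 of 3 were detected at each age, Fn1 being at 0, with sums between 0 and 10.3 in adult and between 3.80 and 14.4 in neonatal cells. The neonatal atrial cell with the highest Pou5f1 of all heart cells, 7.84, also had the highest mesenchymal sum, 34.4, Actb at 10.4 and 29 detected assays. Smooth muscle markers (Myh11, Cnn1 and Sm22A) were found in 4 of 10 adult and 5 of 5 neonatal atrial cells, with sums between 0 and 14.02 in adult and between 2.14 and 17.1 in neonatal cells, Myh11 being at 0 in the neonatal ones. The sum of 17.1 belonged to the same neonatal cell with the highest Pou5f1. In ventricles they were found in 4 of 10 adult cells (sums up to 9.53, Cnn1 at 0) and 3 of 5 neonatal cells (up to 2.09, Myh11 and Cnn1 at 0). Endothelial markers were found in 4 of 10 adult and 3 of 5 neonatal atrial cells, and in 4 of 10 adult and 2 of 5 neonatal ventricular cells.

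The age difference in Pou5f1 depended on the scale. Relative to Actb, adult minus neonatal was -1.28 in atria with undetected cells at the lowest value, and -0.01 over detecting cells. In ventricles these values were -1.78 and -1.31. Centred on the median detected assay, it was -3.19 in atria and -2.56 in ventricles, and -2.01 and -2.17 over detecting cells. The part of detected assays, Actb and the markers of other cell types in the Pou5f1 signal was not tested.

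Across the 30 heart cells Pou5f1 correlated with the number of detected assays at r = 0.71 and with Actb at r = 0.53. With Tnnt2-1 it had r = 0.19. These cells share 2 tables and differ in age and chamber. Within the 10 adult atrial and the 10 adult ventricular cells, the correlation with the number of detected assays was 0.64 and 0.58. That number counts Pou5f1 itself, so part of each correlation with it is built in where cells lack Pou5f1.

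**Figure D5:**
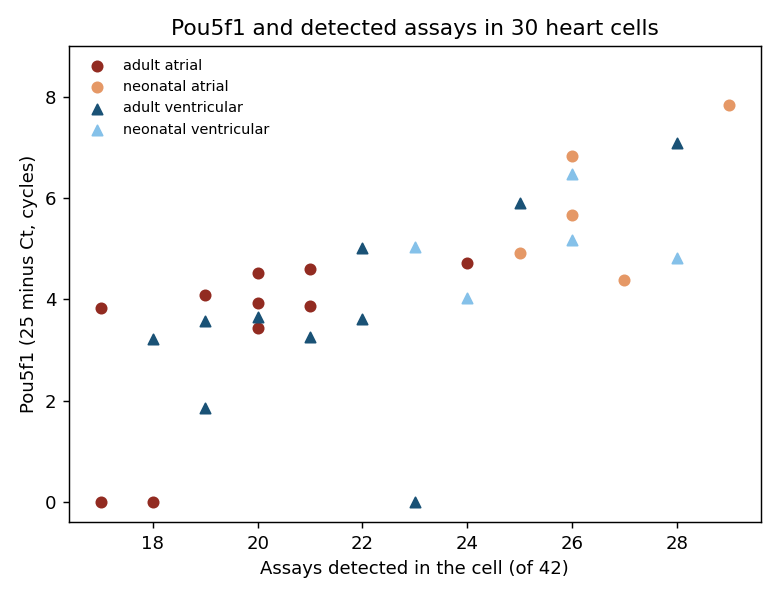
Pou5f1 in cycles above the detection limit (vertical) against the number of assays detected in the cell, of 42 (horizontal), for 10 adult and 5 neonatal cells of each chamber. Pou5f1 is higher in cells with more detected assays (r = 0.71 over the 30 cells), a number that counts Pou5f1 itself. At 0 lie 3 cells, all adult.

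Set against ES cells, heart cells were lower in both genes as measured. Pou5f1 averaged 8.99 ± 0.65 in ES cells (n = 5) and 4.18 ± 1.90 in heart cells (n = 30), a difference of 4.81 cycles without overlap. Sox2 averaged 5.02 ± 1.39 in ES cells and 2.0 ± 1.75 in heart cells, a difference of 3.02 with overlap. At least 1 cycle higher in ES cells than in heart cells were 7 of 42 assays (16.7%), both genes among them. Actb was higher in ES cells by 4.76 cycles.

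Relative to Actb the ES excess was not seen. Pou5f1 minus Actb averaged -0.91 ± 0.40 in ES cells and -0.76 ± 1.38 in the 26 heart cells that detected both, a difference of -0.15. With undetected cells included it was 0.78. At or above the lowest ES value of this measure, -1.33, were 19 of 26 heart cells, 19 of 20 D23-D29 cells, 4 of 5 CM cells and 8 of 59 cells of the E10.5 table. Of the D5-D8 cells 0 of 19 reached it, as did 0 of 5 CPC, SMC, FB and EDC cells each. Sox2 minus Actb differed between ES and heart cells by 0.04 with undetected cells included, and by -2.12 over detecting cells. On the median detected assay the ES cells stayed higher, by 6.21 for Pou5f1 and 4.86 for Sox2. On that scale Actb itself was 6.12 cycles higher in ES cells than in heart cells. The part of Actb in the values relative to it was not tested.

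Sox2 in heart cells was lower and less often detected than Pou5f1. It gave a signal in 21 of 30 cells (70%, 50.6 to 85.3%), against 67 of 157 other cells outside the ES set (42.7%, 34.8 to 50.8%). Adult atrial cells averaged 2.0 ± 1.44 with 8 of 10 detecting, and neonatal atrial cells 2.46 ± 2.30 with 3 of 5. Adult ventricular cells averaged 1.93 ± 2.0 with 6 of 10, and neonatal ventricular cells 1.67 ± 1.66 with 4 of 5. Atrial minus ventricular was 0.30 cycles, within the spread. Of the 21 detecting cells, 5 had Sox2 less than 2 cycles above the limit. Both genes were detected in 19 of 30 heart cells, Pou5f1 alone in 8, Sox2 alone in 2 and neither in 1.

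Controls and row order were looked at for the heart tables. The negative controls of the atrial and ventricular tables gave no signal for Pou5f1, Sox2 or any other assay. Their positive control columns differ from those of the other tables, since 40 of the values stand 1 row lower than in the reference table. The Pou5f1 row of that column holds 15.28 cycles, which is the Sox2 value of the reference table, and the Sox2 row holds 6.88, the value of Mesp1 there. By the 9 genes that have a second assay, the cells of these tables did not stand 1 row lower. Both assays of a gene differed on average by 1.30 cycles in atrial and 1.25 in ventricular cells with names as given. Read 1 row lower, they differed by 6.65 and 5.21. Pou5f1 and Sox2 have 1 assay each, so their own rows could not be checked in this way. Pou5f1 is the last row, so the lower reading gives it no value. It would give Sox2 the values of the Pou5f1 row, with ES minus heart at 0.84 in place of 3.02.

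Across the means of the 21 sets, no assay had a pattern much like that of Pou5f1. The highest correlations were with Actb (r = 0.33), the endothelial and ES cell adhesion gene Pecam1 (0.33) and the smooth muscle myosin gene Myh11 (0.26). Without the ES set these were 0.31, 0.12 and 0.35. The lowest over all 21 sets were with Hcn4, a pacemaker channel gene (-0.72), and the cardiac transcription factor assays Nkx2.5-1 (-0.70) and Gata4-2 (-0.70). For Sox2 the highest were Kit-1, an assay of the stem cell factor receptor (0.50), the progenitor factor assay Isl1-2 (0.36) and Actb (0.22). Without the ES set, Kit-1 stood at 0.22 and Isl1-2 at 0.60. The lowest were the endothelial genes Cdh5 (-0.39) and Vwf (-0.38) and the ventricular light chain gene Myl2 (-0.27).

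Set means of Pou5f1 and Sox2 had little in common beyond the ES set. They correlated at r = 0.19 over 21 sets and -0.24 over the 20 without ES. Between cells the correlation varied, from -0.63 in 6 D6 cells to 0.84 in 10 D23 cells, of which 1 detected Sox2. Over the 30 heart cells it was 0.38. Sets share tables and the amount of RNA per cell, so these values are descriptions.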

How the data were processed

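Per the labels' protocols, cells were sorted 1 to a well, lysed, reverse transcribed in the lysate, pre-amplified and then measured by TaqMan PCR on a Fluidigm chip (BioMark). The authors deposited Ct values, with 25 for no signal. Their cycle threshold, quality filter and normalization, if any, are not stated in the labels or files, and the number of reads or template molecules is unknown. The values are not relative to Actb, which varies between cells.

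Each column was matched to its sample by number and each cell to a set by the name in its table. Of 212 columns, 200 are cells and 12 are controls. The 8 cells whose values recur in full in another table were counted once where sets were pooled. Level is 25 minus Ct. Means and SDs run over all cells of a set with undetected cells at 0, and shares carry Clopper-Pearson 95% intervals. As no animal or culture is named, no test was run, and the number of cells limits the precision.

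A difference of at least 1 cycle was counted for the background share over all 42 assays. Alternatives were subtracting a cell's Actb level or the level of its median detected assay (an undetected assay then took the lowest such value among all cells compared), a limit 2 cycles stricter (Ct 23), detecting cells alone (at least 3 per set), medians, a filter on cells, single ES cells left out and the heart tables read 1 row lower. Both centrings over detecting cells alone, and CM cells without the 2 repeats, were added after the data were seen. The members, lists and alternatives were chosen with earlier results of these data known. Named beside the members were Actb, Tnnt2-1 and the 3 assays with the highest and lowest correlation of set means. On simulated D8 and D5 cells the difference step was in error by 0.36 cycles on average over 42 assays. Python 3.11.15, numpy 2.4.6, pandas 2.3.3, scipy 1.17.1 and matplotlib 3.10.9 were used.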

Additional observations from a re-analysis of the deposited data

Results flagged for a closer look

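Single cells that stood apart from their set in Pou5f1 or Sox2 were looked for in the 39 combinations of gene and set with 4 to 10 cells by the gap to the nearest cell, and 5 were found. For continuous values chance gives about 1 in 20 groups. Pou5f1 was at 0 in 1 of 6 D6 cells, while the others had at least 4.31 cycles. Pou5f1 was at 6.81 in 1 of 10 D23 cells, which was also the 1 D23 cell with Sox2, at 2.76. Sox2 was detected in 1 of 5 CM cells, at 2.95 cycles, and in 1 of 6 D5 cells, at 3.14. In the 3 Sox2 cases all other cells of the set were at 0, so the gap is the whole range whatever the level, and that chance rate does not apply to them. The D6 cell at 0 is an undetected cell set at the limit, so the rate does not apply to it either. The same holds for any set with undetected cells.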

How the results depend on the processing

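Of 117 alternative values for 12 comparisons, 104 lay within 1 SD between cells of the value given (small differences could change sign within it), 9 moved by more and 4 reversed a difference of at least 1 cycle. Centring on Actb moved Pou5f1 to -1.30 for D8 minus D5, -0.46 for E10.5 minus E7.5, 6.55 for D23-D29 minus D5-D8 and 0.78 for ES minus heart, and Sox2 to 0.0422 for ES minus heart. On Actb over detecting cells alone, Pou5f1 reversed to 1.42, 2.91 and -0.15 for D8 minus D5, E10.5 minus E7.5 and ES minus heart, and was 5.25 for D23-D29 minus D5-D8. Sox2 reversed to -2.12 for ES minus heart and, for D23-D29 minus D5-D8, changed sign to 2.51 against -0.98 as reported. Centring on the median detected assay moved Sox2 for ES minus heart to 4.86, and the heart tables read 1 row lower to 0.84. The cause of these moves was not tested. Leaving out single ES cells gave 3.13 to 3.55 (Pou5f1) and 3.0 to 3.90 (Sox2) for ES minus the other types, and 4.64 to 5.07 and 2.51 to 3.41 for ES minus heart. The filter left out 3 E10.5, 2 E7.5-E10.5 and 1 ventricular cell. It left out 0 reference, D5-D8 and D23-D29 cells, so comparisons among these could not move under it. For Pou5f1 in ES minus the other types, the stricter limit and detecting cells alone also left 3.30 unchanged. Such values count among the 104. Over detecting cells Sox2 had no value in 3 comparisons, with under 3 such cells in a set. No paired analysis was possible because the cells carry no shared replicate and no test was run. Values near the limit of 25 cycles cannot separate a weak signal from none.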
